A study of Mus musculus with 2 samples.

Results

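The OAS family of the mouse, taken here as Oas1a, Oas1b, Oas1c, Oas1g, Oas2, Oas3, Oasl1 and Oasl2, was described as 8 genes of 55536 annotated genes, chosen as a list of symbols with earlier results of these data known. The cells were macrophages grown from bone marrow of C57BL/6J mice, used as primary cells with no transgene or deletion named in the labels. They were treated with 100 ng/ml of lipid A (the TLR4-binding part of bacterial lipopolysaccharide) for 12 h, washed, rested for 12 h and treated again with 100 ng/ml for 75 min. Total RNA of the cytosol, from which ribosomal RNA had been removed, was sequenced in 1 group of 2 biological replicates. No untreated library was analysed here, so a level is not a measure of induction. The labels name separate biosamples under 1 donor code, possibly that of the strain, so a p-value between the replicates reflects how these samples differ, perhaps only technically.

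OAS enzymes bind double-stranded RNA and then join ATP into 2′-5′-linked oligoadenylates. These oligoadenylates act as a second messenger of the antiviral response. The genes are induced by interferon, and some family members have kept the fold of the enzyme without its activity.

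The libraries held 64187219 rounded expected counts on annotated genes in replicate 1 and 49429864 in replicate 2. Levels are given in TPM, which scales reads for transcript length and then to a fixed total per library, as mean ± SD (n = 2). All 8 macrophage markers listed were detected (TPM no lower than 1 in each replicate), 7 of them at 100 or more. Of 19 markers of other cell types 16 stayed under 1, and Cd4, S100a9 and S100a8 were detected, with Cd4 the highest at 15.4 ± 1.87. The other markers listed with Cd4 for T and natural killer cells (Cd3e, Cd3d, Cd8a and Ncr1) were at 0.02 or lower in both replicates. Those listed with S100a8 and S100a9 for neutrophils (Mpo, Elane and Ltf) were at 0.1 or lower. The summed TPM of those 19 markers was 22.8 and 27.3 in replicates 1 and 2, and their part in the OAS levels was not tested.

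All 8 OAS genes were detected, where 16.7% of all annotated genes and 40.0% of protein-coding ones were. The annotation holds 12 OAS and OAS-like genes, and the 4 that are not members (Oas1d, Oas1e, Oas1f and Oas1h) were not detected, so the count of 8 follows in part from the choice of members. Oasl2, Oasl1 and Oas3 were high (at least 100 in both replicates), Oas1a and Oas1g moderate (10 to under 100), and Oas2, Oas1b and Oas1c low (under 10 in at least 1 replicate). These bands, here and below, are on TPM as deposited and depend on that scale. Rescaled to protein-coding genes, Oas1a stood at 262 and 288 and Oas1g at 114 and 127, over 100 in both replicates. Oas2 then stood at 32.7 and 44.8, Oas1b at 17.8 and 20.3, and Oas1c at 13.2 and 10.6, all over 10. As deposited, the median of the 8 members was 55.4 ± 1.27, against a median of 7.71 over the 8812 detected protein-coding genes. Of those genes 96.9% lay below Oasl2, 93.4% below Oas1a, 60.4% below Oas2 and 24.2% below Oas1c. The family summed to 555 and 509 TPM, and the 3 highest genes made up 76.3% and 74.7% of that sum in replicates 1 and 2.

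**Figure D1:**
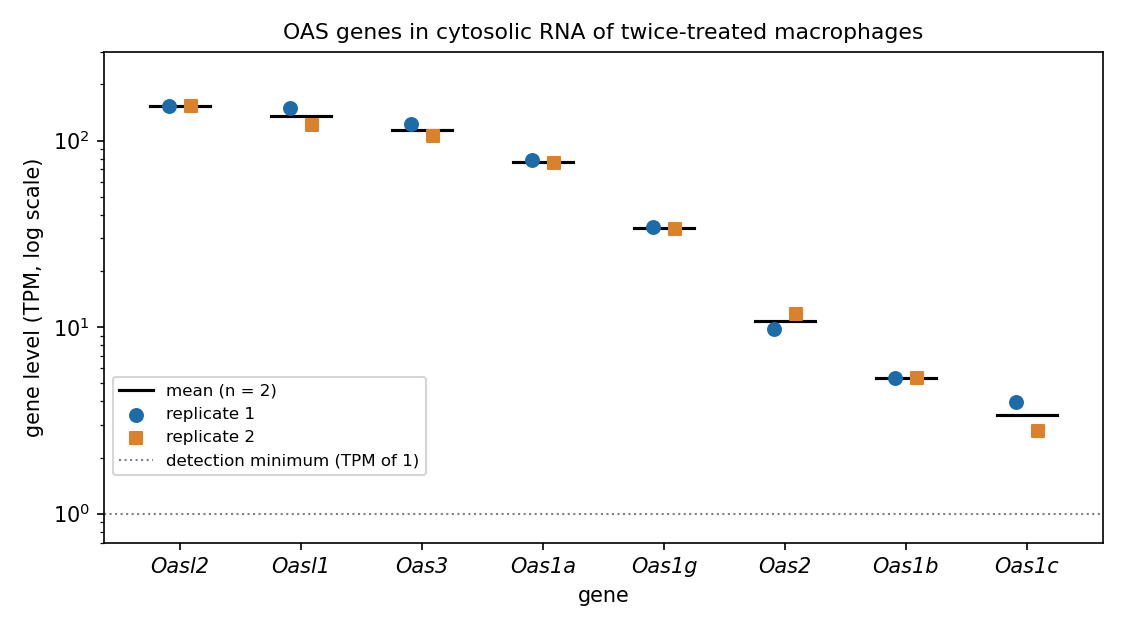
Gene TPM (log axis) of the 8 OAS genes, from the highest mean to the lowest, with 1 point per replicate and a line at the mean of 2 replicates. Levels run from 153 for Oasl2 to 3.365 for Oas1c, and the replicates of a gene lie closer to each other than most neighbouring genes do.

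Among the members with known synthetase activity, Oasl2 was the highest by TPM summed over all transcripts of a gene. Oasl2 (ENSMUSG00000029561.17), which joins an active OAS unit to ubiquitin-like domains, stood at 152 and 154 TPM in replicates 1 and 2. Oas3 (ENSMUSG00000032661.9), the longest member, built of repeated OAS units, stood at 122 and 106. Oas1a (ENSMUSG00000052776.10), the main small synthetase of the mouse, stood at 78.3 and 75.6. By this sum these 3 genes were each above 75 TPM in both replicates. Over transcripts annotated as protein-coding only, Oasl2 stood at 41.5 and 38.7, below Oas3 and Oas1a. Oas1g (ENSMUSG00000066861.14), the close paralogue of Oas1a, stood at 34.2 and 33.4 TPM. Oas2 (ENSMUSG00000032690.16), the middle-sized enzyme with a pair of OAS units, stood at 9.79 and 11.7. Oas3 was thus 10.8 ± 2.44 times Oas2 on the TPM scale, the ratio being 12.5 in replicate 1 and 9.04 in replicate 2. The 5 synthetase genes together held 71.5% and 74.7% of the family's TPM.

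Of the members without synthetase activity, Oasl1 was high and the others were the lowest of the family. Oasl1 (ENSMUSG00000041827.15), an inactive homologue known to hold back translation of Irf7, stood at 149 and 121 TPM. Oas1b (ENSMUSG00000029605.16), the gene behind resistance to flaviviruses in some mouse strains, stood at 5.32 and 5.33. Oas1c (ENSMUSG00000001166.17), a small OAS protein without known synthetase activity, stood at 3.96 and 2.77. Oas1c had the lowest level in either replicate, and Oasl2 was 38.5 and 55.5 times as high.

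In the order of mean TPM, a gap between neighbours was read as larger than the replicate spread where it exceeded the sum of their SDs. Oasl2 and Oasl1 did not stand apart by this rule (gap 18.2, summed SDs 21.3), nor did Oasl1 and Oas3 (gap 20.7, summed SDs 31.7). Oas3 stood above Oas1a by 37.3 against summed SDs of 13.4, and Oas1a above Oas1g by 43.2 against 2.53. The remaining gaps, between Oas1g and Oas2 (23.0 against 1.97), Oas2 and Oas1b (5.44 against 1.39), and Oas1b and Oas1c (1.96 against 0.849), were also larger than the spread. With TPM rescaled to protein-coding genes Oasl1 (479 ± 27.4) and Oas3 (407 ± 2.82) did stand apart, while Oasl2 (548 ± 54.8) and Oasl1 again did not. The SD of Oas1b, 0.0071 TPM, comes from 2 near-equal values (5.32 and 5.33) and does not measure the precision of its level. Rescaled, Oas1b stood at 19.1 ± 1.80, between Oas2 (38.7 ± 8.52) and Oas1c (11.9 ± 1.89). Both of these gaps were again larger than the summed SDs.

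The order depended on whether length was corrected for. By TPM Oasl2 held 28.8 ± 1.96% of the family, Oasl1 25.3 ± 2.25%, Oas3 21.4 ± 0.836% and Oas1a 14.5 ± 0.520%. By expected counts, which grow with transcript length, Oas3 led with 39.8 ± 0.631% and Oasl2 followed with 23.0 ± 1.01%. The Oas3 message is 4720 bases long with a coding part of 3414 bases, and that of Oas1a is 1885 bases long with a coding part of 1101. Oas1g, Oas2, Oas1b and Oas1c held 6.36 ± 0.279%, 2.03 ± 0.383%, 1.00 ± 0.063% and 0.628 ± 0.120% of the family's TPM.

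The remaining Oas1 paralogues were at or near the floor. Oas1d, Oas1e and Oas1f had no expected count in either library, and Oas1h had 1 in replicate 1 and none in replicate 2. In the read-based table Oas1h had 2 and 5 estimated counts in replicates 1 and 2, and the others again had none. A count of 0 allows up to 3 counts, and this floor covers counting error only. For comparison the least counted member, Oas1c, had 754 and 481 expected counts.

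Among the listed genes known to act on the 2′-5′ oligoadenylate pathway besides the synthetases, 3 were measured and all were detected, 1 moderate and 2 low. Abce1, an ATP-binding protein of ribosome recycling, was the highest at 11.1 and 10.3 TPM in replicates 1 and 2. Pde12, a phosphodiesterase that breaks down the oligoadenylates, was the lowest at 1.78 and 1.65. Pde12 was thus below all 8 OAS genes in both replicates on the TPM scale, and Abce1 lay near Oas2. By expected counts, which grow with transcript length, Pde12 (1497 and 1143) lay above Oas1b (805 and 680) and Oas1c (754 and 481).

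Other interferon-linked lists were measured in the same libraries. All 16 listed interferon-stimulated effectors were detected, 10 high and 6 moderate, with a median of 160 ± 13.4 TPM, from Mx2 (a dynamin-like antiviral GTPase, 19.2 ± 0.304) to Ifit2 (an RNA-binding antiviral protein, 719 ± 47.9). The OAS median lay below the effector median, with differences of -1.51 and -1.75 in replicates 1 and 2 on the log2(TPM + 0.1) scale and a mean of -1.63 ± 0.17. All 8 genes listed with the other sensors of double-stranded RNA, the adaptor Mavs included, were detected (1 high, 6 moderate, 1 low). Their median was 37.4 ± 1.10, and they ran from Mavs (the mitochondrial adaptor, 8.48 ± 0.354) to Zbp1 (a Z-nucleic acid sensor, 153 ± 19.0). All 11 genes of interferon production and signalling were detected (3 high, 6 moderate, 2 low), and their median was 30.8 ± 0.325. Irf7, a transcription factor of interferon genes, was the highest of these at 658 and 561, and Irf3, its constitutive relative, the lowest by mean, at 10.02 and 8.25. No test between the lists was made, since genes are not replicates.

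All members lie on chromosome 5, in 2 places, on the mm10 assembly (GRCm38). Oasl2 (chr5:114896936-114912234) and Oasl1 (chr5:114923240-114937915) lie on the plus strand and form a pair within 40.98 kb. The Oas cluster spans 191.32 kb and holds 10 Oas genes, 6 of them members. On its minus strand lie Oas2 (chr5:120730333-120749853), Oas3 (chr5:120753098-120777661), Oas1c (chr5:120800194-120812514), Oas1g (chr5:120876142-120887613) and Oas1a (chr5:120896256-120907521). Oas1b (chr5:120812635-120824163) is on the plus strand and starts 121 bases from the start of Oas1c, head to head. Oas2 and Oas3, which are neighbours, were 10.8-fold apart, and Oas1e, with no count, lies between Oas3 and Oas1c. Oas1c, Oas2 and Oasl1 each overlap 1 unnamed gene on the other strand (Gm43069, Gm43068 and Gm13822), and whether the counting used strand is not given in the sources used here.

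**Figure D2:**
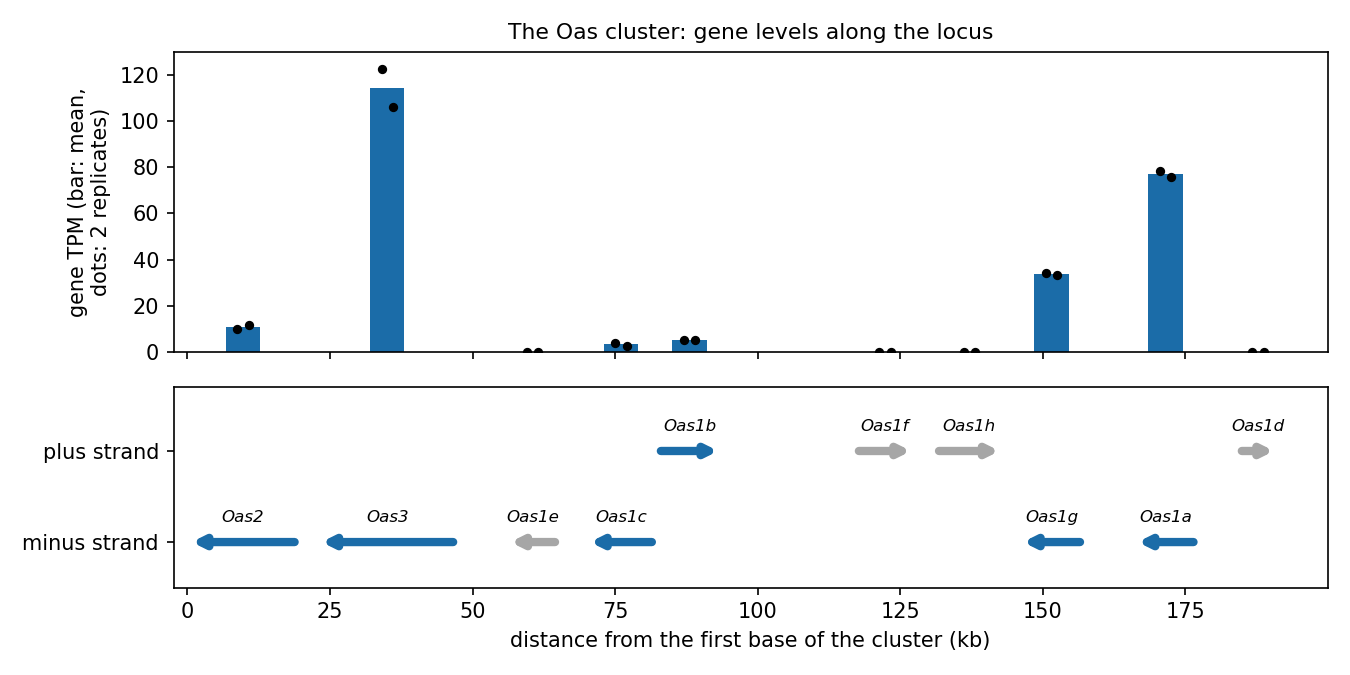
Top, gene TPM along the Oas cluster (bar, mean of 2 replicates; dots, replicates); bottom, the 10 Oas genes as arrows in their direction of transcription, against distance in kb from the first base of the cluster. Blue genes were detected and grey ones were not; Oas3 and Oas1a are the highest, 114 and 77.0, and the genes at or near 0 lie among them.

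The start regions of some members carry the same letters, shown here because the genes that share them differ in level. In RefSeq windows of 300 bases (250 before and 50 after a gene's start, build GRCm38), 6 of 8 members had an entry (Oas1a, Oas1c, Oas1g, Oas3, Oasl1 and Oasl2), as did the non-members Oas1f and Oas1h. The motif GAAANNGAAA, the core of interferon-stimulated response elements, was searched on both strands with overlaps allowed, and 3.44% of all 32851 windows held it. It was found in the windows of Oas1a, Oas1g, Oas1c and Oas3, and these letters were not in those of Oasl1, Oasl2, Oas1f or Oas1h. Oas1a, Oas1g and the stretch between Oas1b and Oas1c share a run of 19 bases, in capitals, which holds 2 overlapping matches. For Oas3 the capitals mark its 1 match. All are read 5′ to 3′.
Oas1a, minus strand, chr5:120907510-120907568: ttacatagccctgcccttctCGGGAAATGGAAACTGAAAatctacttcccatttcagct
Oas1g, minus strand, chr5:120887596-120887654: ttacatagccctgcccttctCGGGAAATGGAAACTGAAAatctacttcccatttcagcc
Oas1b and Oas1c, plus strand, chr5:120812590-120812648: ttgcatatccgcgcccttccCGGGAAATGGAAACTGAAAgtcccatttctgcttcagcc
Oas3, minus strand, chr5:120777705-120777754: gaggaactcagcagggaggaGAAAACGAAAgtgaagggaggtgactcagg

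The shared run ends 7 bases before the annotated start of Oas1b and begins 96 bases from that of Oas1c, and on the plus strand it reads in the direction of Oas1b. By the RefSeq starts, the first base of the run is 23 bases before the start of Oas1a and 21 before that of Oas1g. Genes with the same 19 bases next to their start thus ranged from Oas1a at 77.0 ± 1.94 TPM through Oas1g at 33.8 ± 0.587 to Oas1b, at 5.32 and 5.33 in replicates 1 and 2. Oas1c, with the run farther from its start, was lower still at 3.365 ± 0.841. Oasl2 and Oasl1, the highest members, had no match in their windows, which says only that these letters are not in them. A match is a description of letters, and binding was not measured.

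Oas1a and Oas1g are near copies, so the split between them is less certain than other levels. Their coding sequences matched at 96.7% of 1101 aligned bases, while any other pair of members matched at 80.1% or less. Of the 50-base windows of the Oas1a message 42.4% occur in no other gene's transcript on either strand, and of Oas1g 45.3%, nearly all others being shared between the pair. Both genes carried the same deposited posterior SD of the expected count, 30.3 in replicate 1 and 25.45 in replicate 2, whereas that of Oas2, Oas3, Oasl1 and Oasl2 was 0. Oas1a was 2.28 ± 0.018 times Oas1g by the alignment-based table and 1.97 times by the read-based table. The other members had 83.7% or more of such windows to themselves, and Oas2, Oasl1 and Oasl2 had 100%.

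In the reference genome, made from the C57BL/6J strain, Oas1b has a stop codon inside its reading frame. Its leading transcript Oas1b-203, annotated as a polymorphic pseudogene, held 79.1% and 82.4% of the gene's TPM, and Oas1b-202, a processed transcript, held the rest. Oas1b-201, the model annotated as coding, was listed at 0 in both replicates and both tables. The annotated reading frame of Oas1b-203 has 376 codons, of which codon 253, in exon 4 of 6 (chr5:120821308-120821310), is a stop in the mm10 sequence. The codon is shown, in capitals, beside the aligned codon of its paralogues, with 21 bases on each side.
Oas1b, plus strand, chr5:120821287-120821331: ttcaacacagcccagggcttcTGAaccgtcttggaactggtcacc
Oas1a, minus strand, chr5:120899168-120899212: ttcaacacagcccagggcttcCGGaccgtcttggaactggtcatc
Oas1g, minus strand, chr5:120879195-120879239: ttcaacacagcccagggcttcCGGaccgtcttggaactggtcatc
Oas1c, minus strand, chr5:120802917-120802961: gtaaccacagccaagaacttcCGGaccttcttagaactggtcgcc

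Counted from the first base printed, and with the paralogue as reference, Oas1b differs from Oas1a and from Oas1g by C22T, G24A and T44C, and C22T and G24A fall in the capitals. Both of these differences are also present against Oas1c. These are reference sequences, not reads of these libraries. Over their coding parts Oas1b matched Oas1a at 79.6% and Oas1c at 75.0% of aligned bases, and 96.6% of its 50-base windows occur in no other gene.

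Transcript tables split the family into genes with 1 main coding message and genes with much of their TPM on noncoding models. Of 7 members with several transcripts, all had the same leading transcript in both replicates of the alignment-based table. Oas3 gave 99.1 ± 0.0071% of its TPM to Oas3-201, and Oas1a has a single annotated transcript. Oas1c gave 85.2 ± 7.30% to Oas1c-201, and Oas2 77.4 ± 4.398% to Oas2-201. Oasl1 gave 78.4 ± 3.67% to Oasl1-202, and its Oasl1-201 share was 17.9% in replicate 1 and 7.67% in replicate 2. Smaller transcripts carried the rest, with larger differences between replicates and between tables. For Oas2, Oas2-202, a second coding model, held 11.9% and 7.09% in replicates 1 and 2, and Oas2-204, which retains an intron, 12.6% and 11.6%. In the read-based table the same transcripts held 20.2% and 14.4%, and 1.14% and 2.49%. For Oasl1, the processed transcript Oasl1-205 held 5.51% and 10.04%, where the read-based table gave it 0.163% and listed it at 0. The second coding model of Oas1c, Oas1c-202, held 19.9% and 9.61%, on 17.5 and 4.63 expected counts. These transcripts have low counts beside their gene, and the deposited posterior SD of the Oas2-204 count was 16.7% and 16.8% of it.

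The median leading share over these 7 members was 78.4%, and over 8190 detected protein-coding genes with several transcripts it was 80.2%. Oas1b, annotated as a polymorphic pseudogene, is 1 of the 7 members but not among the 8190 genes.

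**Figure D3:**
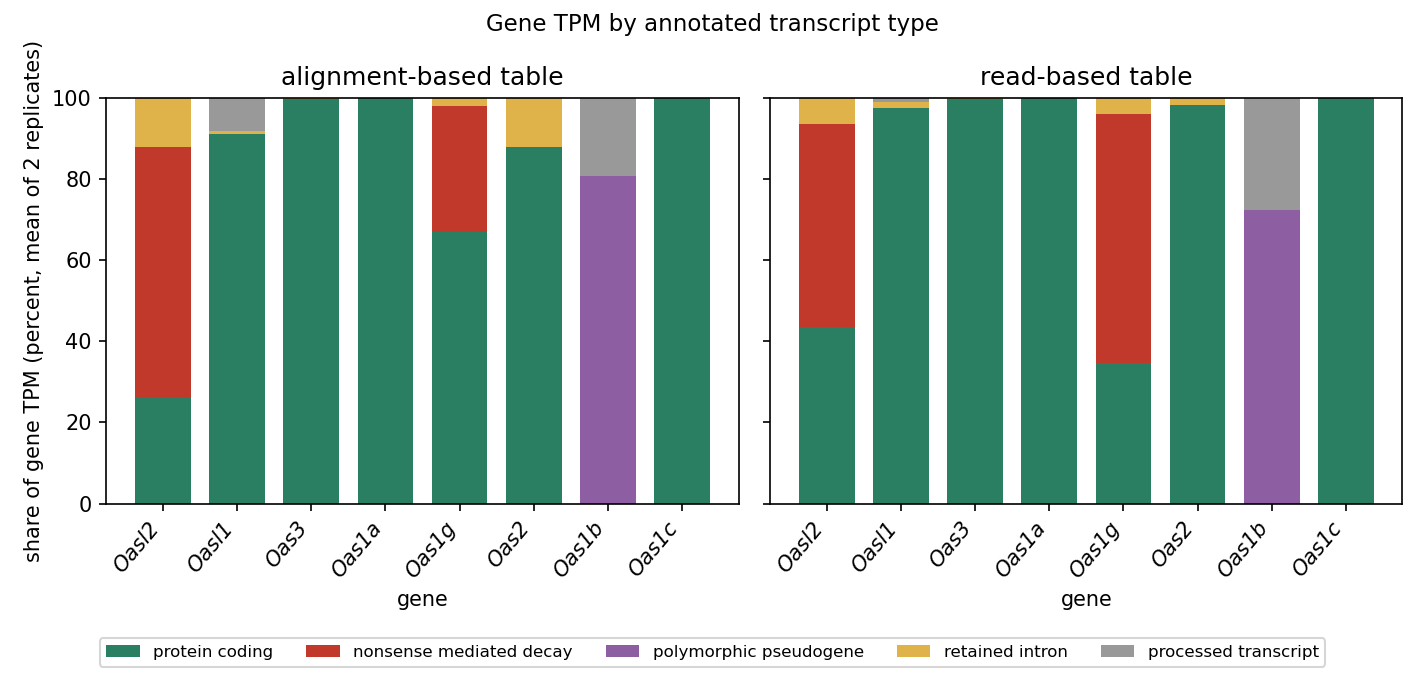
Share of each gene's TPM by annotated transcript type (stacked bars, percent, mean of 2 replicates), in the alignment-based table (left) and the read-based table (right). Oasl2 and Oas1g carry the nonsense-mediated decay share (61.8% and 31.0% on the left, 49.98% and 61.5% on the right), and Oas1b has no share on a coding transcript.

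The leading transcript of Oasl2 was not a coding one. Oasl2-205, annotated as a target of nonsense-mediated decay (the pathway that degrades messages with an early stop), held 63.7% and 60.01% of the gene's TPM in replicates 1 and 2. The coding Oasl2-201 held 26.8% and 23.0%. In the read-based table Oasl2-205 led again, with 51.3% and 48.6%, against 32.7% and 28.6% for Oasl2-201. Another coding model, Oasl2-207, held 11.0% and 13.8% there, and all coding models together held 44.1% and 42.9%. By the alignment-based shares, 1.76% of 8190 detected protein-coding genes with several transcripts were led by such a transcript. Both the alignment-based and the read-based shares put such a transcript first in 118 of these 8190 genes, and of the 7 members with several transcripts Oasl2 was the 1 such gene. The 2 models differ in exon 2 of Oasl2-201, 289 bases at chr5:114899742-114900030, which Oasl2-205 skips and which is not a multiple of 3. The junctions are shown on the plus strand from 30 bases before the end of exon 1 at chr5:114897862; capitals mark the first bases of exon 2 in Oasl2-201 and the stop codon (chr5:114901288-114901290) in Oasl2-205.
Oasl2-201: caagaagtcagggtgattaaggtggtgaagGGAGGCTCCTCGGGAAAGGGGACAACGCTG
Oasl2-205: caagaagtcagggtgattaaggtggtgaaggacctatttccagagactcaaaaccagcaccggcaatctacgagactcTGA

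In Oasl2-205 the stop codon begins 48 bases after the new junction, with 3 further exon junctions behind it. The models also differ at the 5′ end, since Oasl2-205 begins 806 bases downstream of the first base of Oasl2-201, within the same exon. The coding part of Oasl2-201 starts after 729 bases of that exon, so Oasl2-205 as annotated does not hold the start codon of Oasl2-201. Of the 50-base windows of Oasl2-205, 97.6% also occur in Oasl2-201, so most of its sequence does not tell the models apart, and which of the 2 differences set the split was not tested. The deposited posterior SD of the Oasl2-205 count was 0.649% and 0.742% of that count, smaller than the difference between the tables.

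Oas1g also had a decay-annotated transcript, and the tables disagreed on which of its transcripts led. The coding Oas1g-201 held 68.1% and 66.0% of the gene's TPM in the alignment-based table, and Oas1g-203, annotated for nonsense-mediated decay, 30.5% and 31.5%. In the read-based table Oas1g-203 led with 62.5% and 60.5%. Such a change of leading transcript between tables was found for 1 of 7 members, beside 10.4% of the 8190 genes. In Oas1g-203, exon 3 of 7 runs on for 61 bases (chr5:120881824-120881884) past its end in Oas1g-201. Both are shown on the minus strand from the last 21 bases that exon 3 shares. Capitals mark the first bases of exon 4 in Oas1g-201 and the stop codon (chr5:120881837-120881839) in Oas1g-203.
Oas1g-201: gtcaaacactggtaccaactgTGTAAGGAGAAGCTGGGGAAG
Oas1g-203: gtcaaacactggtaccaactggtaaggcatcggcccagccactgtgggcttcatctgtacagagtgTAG

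The stop codon of Oas1g-203 begins 45 bases into the added stretch, with 4 exon junctions behind it. Of the 50-base windows of Oas1g-203, 90.3% also occur in Oas1g-201. The models differ outside this stretch too, since Oas1g-203 is 1489 bases long and Oas1g-201 is 1977. Which difference set the split was not tested.

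Counting only transcripts annotated as protein-coding, a step chosen after the transcript shares were seen, changed the order of the family. Oasl1 then had the highest mean, at 140 and 107 TPM in replicates 1 and 2. Oas3 followed at 122 and 106, and Oas1a at 78.3 and 75.6. The gap between Oasl1 (123 ± 23.2) and Oas3 (114 ± 11.4) did not exceed the sum of their SDs, so these genes did not stand apart. Oasl2 fell from the top of the order to the fourth place, at 41.5 and 38.7. Oas1g stood at 23.3 and 22.04, Oas2 at 8.56 and 10.4, Oas1c at 3.96 and 2.77, and Oas1b had none. The size of the step depended on the table. Rescaled to protein-coding genes, coding Oasl2 stood at 143 ± 6.35 in the alignment-based and at 232 ± 23.9 in the read-based table. Its mean was below that of Oas1a (275 ± 18.7 and 263 ± 21.4) in both. In the read-based table the gap between Oasl2 and Oas1a did not exceed the sum of their SDs. Coding Oas1g stood at 81.0 ± 4.32 and 46.3 ± 2.96 in the same tables.

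**Figure D4:**
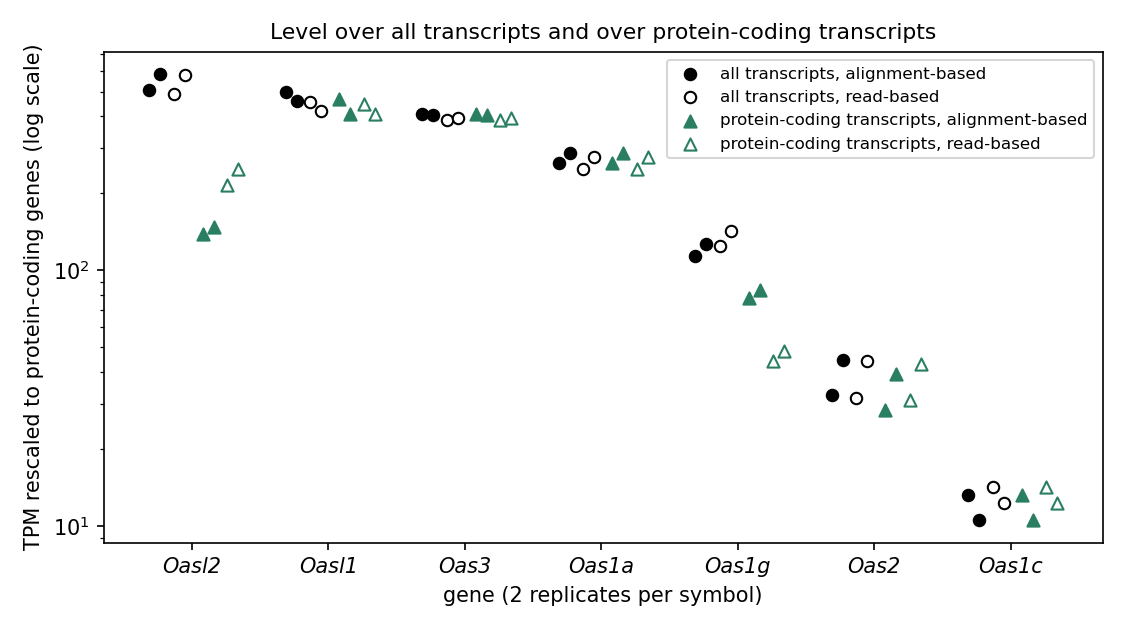
TPM rescaled to protein-coding genes (log axis) for 7 OAS genes, over all transcripts (circles) and over protein-coding transcripts (triangles), in the alignment-based (filled) and read-based (open) tables, with 1 symbol per replicate. Oasl2 drops from 548 to 143 (filled) and from 534 to 232 (open), Oas1g also drops, and the other genes keep nearly the same level; Oas1b, with no coding transcript above 0, is left out.

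At the level of whole genes the tables differed little. Rescaled to protein-coding genes, 0 of 8 members differed 2-fold or more between the read-based and alignment-based tables in both replicates. Of 8812 detected protein-coding genes, which leave out Oas1b, 0.579% did. No test was run for this comparison, since both tables come from the same reads. Log2 ratios of the read-based to the alignment-based level ran from -0.13 for Oasl1 in both replicates to 0.25 for Oas1b in replicate 2.

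Between the replicates no member differed by 2-fold, though several differed by more than counting error. Oas2 was higher in replicate 2 by 0.36 on the log2 scale of TMM-scaled counts (3773 and 3737 expected counts before scaling; adjusted p = 1.03e-26 by the exact binomial test with Benjamini-Hochberg adjustment over 13298 genes). Oasl1 was lower in replicate 2, at -0.27 (31079 and 19780 counts; adjusted p = 5.85e-97, same exact test), and so was Oas3, at -0.11 (61284 and 43646 counts; adjusted p = 1.53e-34, same exact test). Oas1c was lower at -0.27 (adjusted p = 0.00298, same exact test). Oas1a, Oas1b, Oas1g and Oasl2 lay between 0.01 and 0.13, with adjusted p-values from 0.0802 to 0.529 in the exact binomial test. The members thus moved in both directions, with a median log2 ratio of 0.02 beside -0.04 over all genes tested.

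At an adjusted p under 0.05 and a fold of at least 2, 0 of 8 members and 5.45% of 13298 genes were called. By adjusted p alone 4 of 8 members passed, where 56.4% of all genes did, and 5 of 8 had an unadjusted p under 0.05. The exact test of edgeR at a coefficient of variation assumed to be 0.1 called 0 members and had 0 under an unadjusted p of 0.05; for Oas2 it gave an adjusted p of 0.328. The binomial test holds counting error only and compares these libraries, not conditions. In bulk RNA fewer cells of a type and less RNA per cell cannot be told apart. As deposited, the TPM of detected genes was shifted by a median of -0.12 (log2) in replicate 2, which the scaled counts take out.

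**Figure D5:**
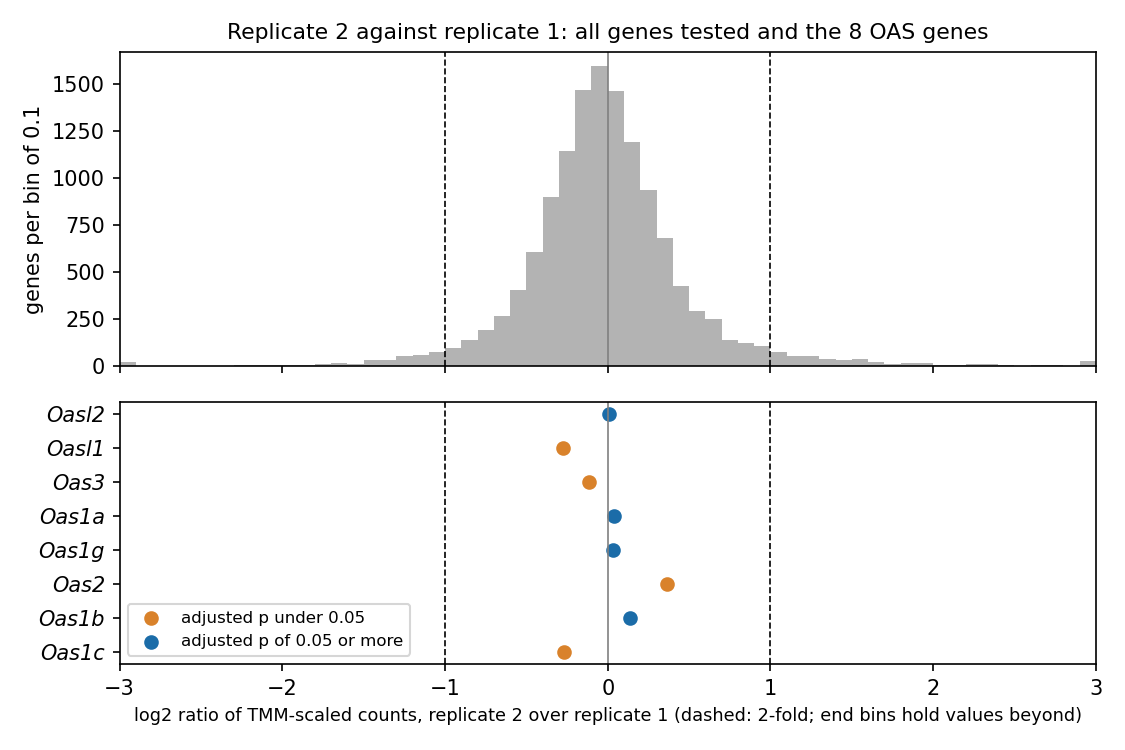
Log2 ratio of TMM-scaled counts, replicate 2 over replicate 1: top, number of the 13298 genes tested per bin of 0.1; bottom, the 8 OAS genes, orange where the adjusted p was under 0.05. All 8 points lie between the dashed lines at 2-fold, from -0.27 (Oasl1, Oas1c) to 0.36 (Oas2).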

How the data were processed

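Cytosolic total RNA of 2 libraries of 1 group was measured. Each library has gene and transcript tables quantified from a transcriptome alignment (alignment-based), and a second transcript table quantified without one (read-based). The text deposited beside them names mm10 and GENCODE M21. Which aligner and quantifiers were run, and with what strand setting, is not given in the sources used here. The authors deposited expected counts (estimated reads per feature, not scaled by depth), TPM and FPKM (scaled by depth and effective length over all features, structured RNAs included), per the file headers. The percent column deposited with the transcripts says how much of the TPM of its gene a transcript received. The deposited posterior SD of a count is an unscaled signal of the quantifier's own uncertainty.

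The members and all gene lists were chosen with earlier results of these data known, and the named genes are all 8 members, the other Oas paralogues, and the highest and lowest gene of each pathway list. Markers of other cell types are named where detected, with the rest of the same cell type, which was chosen after their values were seen. 1 gene of a list is not reported here. Read-based transcript TPM was summed per gene. Rescaled TPM sets the sum over protein-coding genes to the same total in each table. Detection means a TPM no lower than 1 in each replicate. With 1 group no comparison between groups was possible.

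Replicates were compared by a two-sided exact binomial test on expected counts rounded to whole numbers, for genes averaging 10 counts or more, with library sizes scaled by TMM in edgeR 4.0.16 (R 4.3.3), Benjamini-Hochberg adjustment over all genes, adjusted p under 0.05 and 2-fold or more as the call. A quasi-likelihood fit needs residual degrees of freedom, which 1 library a side does not leave. DESeq2 1.42.0 gave size factors for an alternative. Coding sequences from GENCODE M21 transcripts were aligned end to end with Biopython 1.88 (match 2, mismatch -1, gap opening -5 and extension -0.5, free end gaps), and identity is over aligned bases. Start-region windows are from RefSeq, build GRCm38. Depth was 64187219 and 49429864 counts, so replicate 1 has the smaller counting error.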

Additional observations from a re-analysis of the deposited data

How the results depend on the processing

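The median level of the 8 members was 55.4 TPM as deposited, and scale moved it most: it was 197.9 with TPM rescaled to protein-coding genes, 28.7 in the read-based table and 99.9 in FPKM, and 31.4 over transcripts annotated as protein-coding only, an alternative chosen after seeing the data. Leaving out a replicate gave 54.5 to 56.3. The Oasl2 share of the family was 28.8% by TPM, 23.0% by expected counts and 10.3% over protein-coding transcripts only. It was 27.4% to 30.2% with a replicate left out. With an assumed coefficient of variation of 0.2, edgeR's exact test called 138 genes between replicates, against 725 by the exact binomial test, and again 0 members. Members called between replicates, or 2-fold apart between tables, numbered 0 under each alternative that changed 1 choice. Without rescaling, the tables differ in overall scale: 8 members were then apart at 1.5-fold, beside 82.4% of detected protein-coding genes, and 6 at 2-fold without replicate 1, beside 80.8%. In all, 7 of 8 members were detected at a TPM of at least 5, Oas1c being the exception. The median leading transcript share over all 8 members, Oas1a with its single transcript included, was 79.5% and ran from 77.4% to 81.7%, and the difference of the OAS and effector medians from -1.75 to -1.51 (log2) with a replicate left out. No paired analysis was possible because the series has 1 group. Depth does not limit the member levels, the least counted member having 481 counts; 2 replicates limit every SD.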
